A study of Mus musculus with 20 samples.

Results

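The late uterine response to estrogen was read from 5 arrays, 2 from uteri collected 24 h after estradiol (E2) and 3 from vehicle uteri. These were chosen by their sample names from the 20 arrays of a series on E2, bisphenol A (BPA) and HPTE, a metabolite of the pesticide methoxychlor. All animals were ovariectomized C57bl6/J females of at least 10 weeks, rested for 10 to 14 days after surgery. The vehicle group received 100 ul of sesame oil and the E2 group 250 ng of E2 in the same volume, subcutaneously. By the labels each array held RNA from 1 uterus in 1 colour, so that the replicates would be separate animals. The study's methods describe pooled tissue on 2-colour arrays for E2, BPA and HPTE, which these labels and scanner files do not show. The study names this series as a later repeat with new samples. The p-values measure the spread between these arrays. The time and treatment fields of the labels appear exchanged, and the groups were taken from the sample names. The vehicle arrays are replicates 1, 2 and 3, collected at 24 h by their names, and the E2 arrays are replicates 2 and 3. The groups set beside them in places are E2 at 2 h, BPA at 24 h and HPTE at 24 h, with 3 arrays each and 750 ug of either xenoestrogen.

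Ovariectomy removes the main source of estrogen and leaves the uterus small and mostly quiescent. Estrogen bound to its receptor then acts in phases. Within hours it switches on early genes and draws water into the tissue, and about a day after the injection the epithelial cells synthesize DNA and divide. The epithelium also turns to making secreted and protective proteins. The genes below are grouped by these roles.

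Array quality was even. On the 5 arrays 74.3% to 80.9% of all probes cleared background by the scanner software's flag, and at most 1 probe per array was saturated. Correlations over the tested probes were 0.985 to 0.994 among the vehicle arrays, 0.990 between the E2 arrays, and 0.904 to 0.937 between the groups. The median SD between replicates on the log2 scale was 0.148 for vehicle and 0.133 for E2. The 3 vehicle arrays all lay at position 1 of their slides and the E2 arrays at position 2, so among these 5 arrays position and treatment cannot be told apart. Slide 3 held replicate 3 of both groups.

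Transcripts of other tissues were present in some arrays and moved with the groups. Of 40 male germ cell genes 38 were lower after E2, where 37.8% of all probes were, with a median log2 difference of -4.68. The sums of their scaled intensities were 249851, 84293 and 74406 in vehicle replicates 1, 2 and 3, against 3280 and 4850 in the E2 arrays. The protamine transcript Prm1 was at 92164, 29145 and 27370.4 in vehicle and 247 and 558 after E2, and averaged 701 in E2 2 h, 3634 in BPA and 1425 in HPTE arrays. For Prm1 the vehicle group was thus the highest of these 5 groups, and vehicle replicate 1 was the highest vehicle array. Of 9 Y-linked genes 4 were tested and 3 were lower, while Ddx3y, Eif2s3y, Kdm5d, Uty and Usp9y did not pass the filter.

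Pancreatic enzyme transcripts were at higher levels in the E2 arrays but few were called. Of 20 tested genes 4 (Cpa1, Ctrc, Cela2a and Pnlip) were called higher (20%, below the 27.2% of all probes), with a list median of 3.60. Their list summed to 1444 to 1748 in vehicle arrays, 11649 in E2 replicate 2 and 31930 in E2 replicate 3. Each of these 4 calls was lost in at least 4 of the 5 fits that left out an array. With array position as a block none of the list was higher and 4 genes were lower (median -5.15). The list median was -3.17 for E2 24 h against E2 2 h, where no gene was called, 3.63 against BPA and 3.87 against HPTE. Adipocyte markers summed to 78930 to 179943 in vehicle and 31671 and 39912 after E2. Of 9 tested 5 were called lower, where 37.8% of all probes were, with a median of -1.83. Without vehicle replicate 1 or with array position as a block 1 call was left. The median was -1.70 without E2 replicate 2 and -1.87 without E2 replicate 3. The part of this RNA in the results below was not tested unless a value is given.

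**Figure D1:**
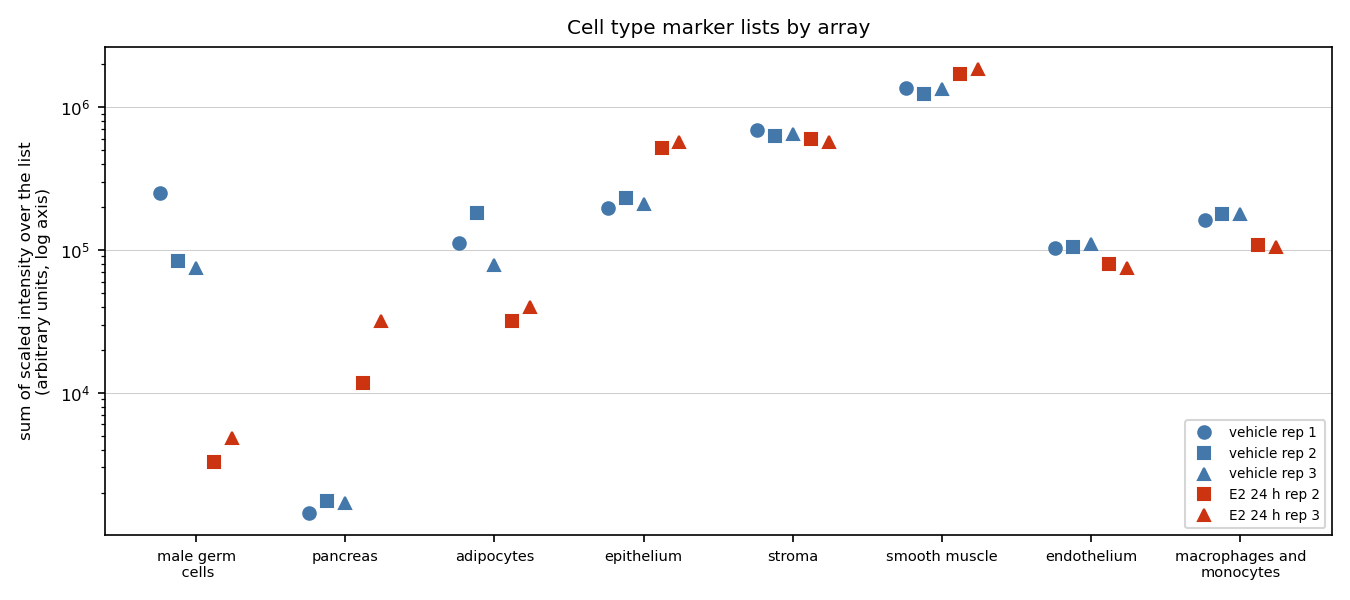
Summed scaled intensity of all genes with a probe, tested or not, of 8 marker lists in each vehicle (blue) and E2 24 h (red) array, on a log axis in arbitrary units. Male germ cell genes ran from 74406 to 249851 in vehicle and from 3280 to 4850 after E2, pancreas genes ran the other way, and the epithelium list was higher in both E2 arrays (515171 and 566499) than in any vehicle array (197316 to 231579).

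Most of the detected transcriptome differed between the groups. Levels are given as scaled intensity, the processed intensity after each array was centred on its 75th percentile, in arbitrary units that do not compare 1 probe with another. Tested were the probes that cleared background in all arrays of vehicle, of E2 24 h or of both, which left 31484 of 41174 probes (20870 symbols). With limma over all 20 arrays and a Benjamini-Hochberg adjusted p under 0.05, 20461 probes (65%) were called, 8550 higher (27.2%) and 11911 lower (37.8%) after E2. A change of at least 2-fold in addition left 8967 (28.5%), 3288 higher (10.4%) and 5679 lower (18%). In 76% of the tested probes the 2 groups did not overlap. The median log2 difference over all tested probes was -0.14, and became 0.00 with quantile normalization, so list medians are read against those values.

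These counts held under most other fits. Leaving out any of the 5 arrays gave 17708 to 19770 calls, and 15636 of the calls (76.4%) were made in all 5 of these fits in the same direction. Within slide 3, 99.8% of the called probes had the sign of the fit. The arrays compared there are part of that fit, so this match was largely fixed in advance. Scaling to spiked-in control RNA left 11378 calls, and array position as a block left 14239. Beyond that, 145 probes were well above background on both E2 arrays and on no vehicle array, and 850 were above it on all vehicle arrays and on no E2 array.

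**Figure D2:**
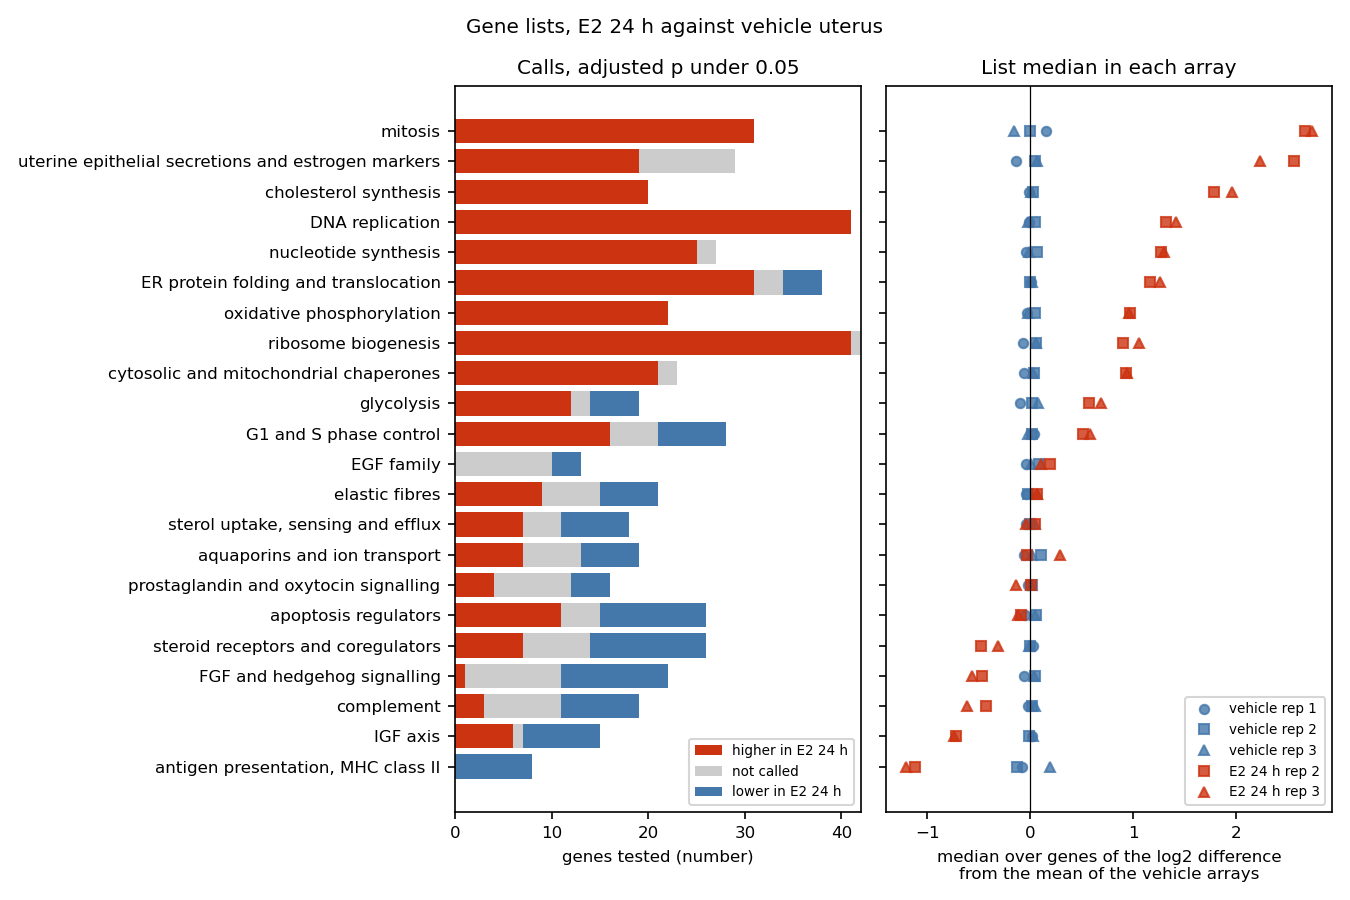
Left, number of tested genes called higher (red), lower (blue) or not called (grey) in 22 gene lists; right, median log2 difference of each list from the mean of the vehicle arrays, by array. In 11 lists both E2 arrays lay above 0.5, from mitosis (2.67 and 2.74) down to G1 and S phase control (0.509 and 0.585), and the MHC class II list was lowest (-1.12 and -1.21).

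The largest increases included several genes of cornifying epithelium. Krt85, a hair keratin, was at 2.43, 8.92 and 7.68 in vehicle, where no array was well above background, and at 3254 and 3568 after E2, at least 241-fold higher (adjusted p = 8.7e-08). Sprr2f, a small proline-rich protein of the cornified envelope (probe at chr3:92472374-92472433 on mm7), rose from 496, 583 and 539 to 107711 and 123460.0, a 214-fold change (log2 7.74 ± 0.49 SE, adjusted p = 7.5e-09). Sprr2a1 rose from 35.3, 72.8 and 53.4 to 5679 and 5886, and Sprr1a from 87.1, 103 and 122 to 6481 and 11804. Sprr2d was at 8.15, 10.7 and 14.4 in vehicle and 1647 and 3369 after E2, at least 167-fold higher. The Sprr2 genes are near-identical copies whose probes may read each other's transcripts, so they are not independent of one another.

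Other genes among the 15 largest increases code for enzymes, transporters and secreted immune proteins. Atp2c2, a calcium and manganese pump of the secretory pathway, was at 30.2, 33.5 and 25.5 in vehicle and 3713 and 3497 after E2. Aoc1, which degrades histamine and putrescine, rose 101-fold, from 42.0, 39.9 and 47.2 to 4996 and 3749. Unc5cl, a membrane adaptor of inflammatory signalling, rose from 23.3, 33.0 and 23.7 to 2571 and 2826 with the smallest adjusted p of the 15 (1.7e-11). Ifne, an interferon of the female reproductive tract, rose from 23.9, 18.8 and 22.0 to 1056 and 1017, and Il1f6, an interleukin of the IL-1 family, from 22.2, 20.6 and 15.5 to 812 and 1011. The chitinase-like protein Chil1 rose 56.6-fold and the urate oxidase Uox 48.0-fold. Crtac1, Gsdmc2 and Prl6a1 had no vehicle array that cleared background and were at least 41.5-, 26.8- and 9-fold higher. All 15 kept their call in every alternative fit run, array position and spike-in scaling included, but not their size. With position as a block the log2 difference of Atp2c2 went from 6.93 to 1.78. After normexp background correction, which compresses dim probes, Krt85 was 5.12 and Prl6a1 1.49 on the log2 scale.

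The 15 largest decreases under the same rule were mostly genes of male germ cells. In 14 of them vehicle replicate 1 stood well above replicates 2 and 3, as for the germ cell list. Cst8 was at 1536, 555 and 464 in vehicle and 2.63 and 3.21 after E2, Gykl1 at 2602, 786 and 650.4 and 2.66 and 8.30, and Spata4 at 2007, 758 and 566 and 2.75 and 6.17. The others of the 14 were Cox8c, Cabs1, Kif2b, Ccer1, Gtsf1, Tex37, Clec2m, Cst9, Cypt12, Prss39 and Spertl. The decreases were therefore also ranked among probes whose vehicle arrays had an SD of at most 0.5 on the log2 scale, a limit set after these values were seen.

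Ano2, a calcium-activated chloride channel, headed that ranking and was the remaining gene of the 15. It was at 562, 581 and 610.4 in vehicle and at 3.12 and 3.66 after E2, where no array was well above background, at least 41.1-fold lower (adjusted p = 2.7e-10), with a log2 difference of -7.43, or -2.69 after normexp background correction. Coch, an extracellular matrix protein, fell 69.5-fold from 2497, 1580.0 and 2040.0 to 33.5 and 24.8. Aldh1a3, which makes retinoic acid, fell 38.1-fold, from 7171, 6816 and 7524 to 275 and 129. Inmt, a methyltransferase of tryptamine and histamine, was among the brighter of these probes and fell from 41220.4, 35207 and 43541 to 1776 and 1403. The mucin-type glycosyltransferase Galnt15 fell 17.3-fold from 65608, 57283 and 59241 to 3819 and 3201. Slc5a11, a sodium-coupled inositol transporter, fell from 1585, 1951 and 1720.3 to 94.9 and 36.2, and the membrane-bound carbonic anhydrase Car4 was at least 13.7-fold lower. Leaving out E2 replicate 2 or 3 gave log2 differences of -5.59 and -4.20 for Slc5a11, -5.40 and -4.21 for Car4, -5.65 and -4.35 for Mlana, and -6.06 and -4.12 for Speer4cos. Myoc, Mlana, Cadps, Lgi1, Speer4cos and Speer4d were also in this ranking. Ccdc185 was too, though its vehicle values (111, 68.0 and 62.0) and its E2 2 h mean (3.17) followed the order of the germ cell genes.

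**Figure D3:**
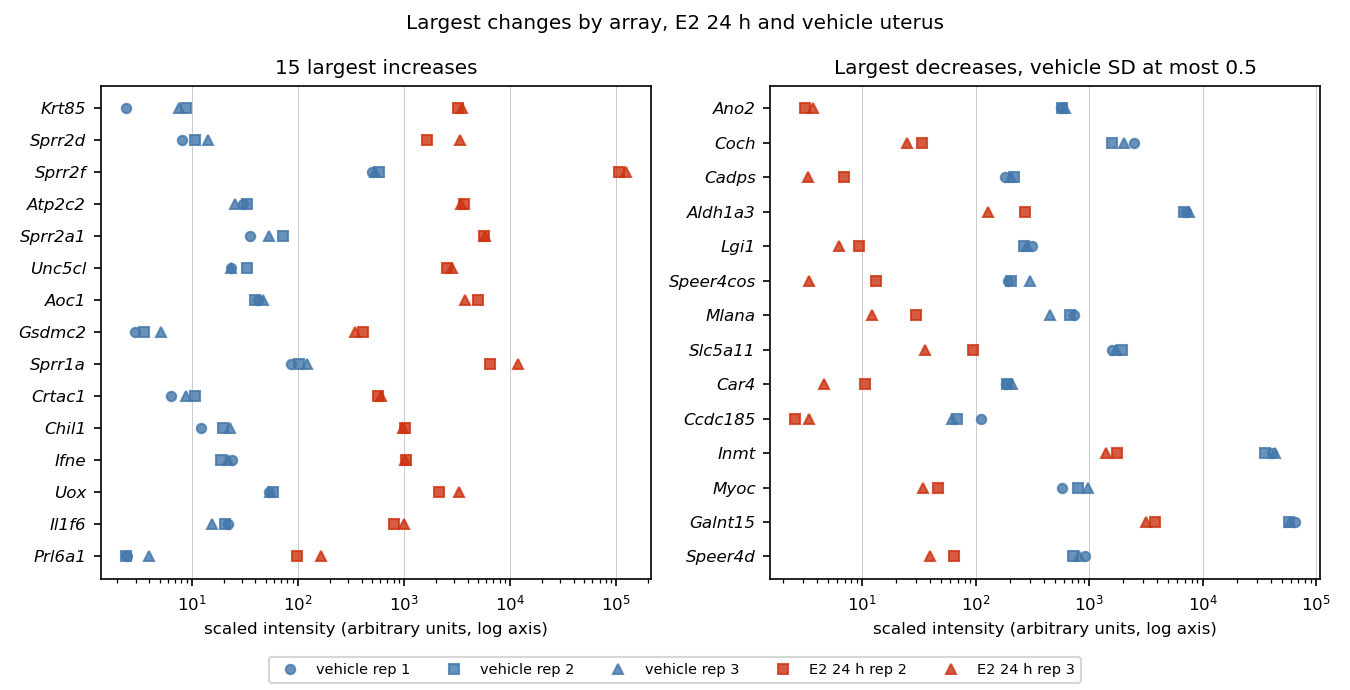
Scaled intensity (arbitrary units, log axis) in each array of the 15 genes with the largest increase after E2 and of 14 named genes with the largest decrease among probes with a vehicle SD of at most 0.5. No E2 array (red) overlapped a vehicle array (blue) for any gene shown, and Krt85 ran from at most 8.92 in vehicle to at least 3254 after E2.

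Genes that divide the cell rose together. All 31 mitosis genes tested were higher after E2, where 27.2% of all probes were, with a median log2 difference of 2.70, and all 31 kept the call whichever array was left out and under all 4 other scalings. Ccnb1, the cyclin that starts mitosis, rose from 234, 194 and 130.1 to 1920.5 and 2257 (log2 3.53 ± 0.31 SE, adjusted p = 1.7e-07). Its kinase Cdk1 rose 8.69-fold, from 500.1, 562 and 459 to 4716 and 4091. Ube2c, which feeds cyclins to the proteasome at mitotic exit, rose from 456, 452 and 409 to 5243 and 5297 (log2 3.59), the largest change of the list. The proliferation antigen Mki67 rose from 3164, 3157 and 2751 to 18552 and 17255 and the survivin gene Birc5 from 3397, 2608 and 2389.5 to 26489 and 29513. The smallest change was that of the spindle checkpoint kinase Bub1b, 2.07-fold, whose call was lost with array position as a block.

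Short sequences known from cell cycle genes were searched in the promoters. The letters CCAAT on either strand lay within 250 bases upstream of the start in 21 of the 26 RefSeq promoters of 25 matched mitosis genes (80.8%), against 33.9% of all 32851 promoters. They were also in 14 of 18 cholesterol synthesis promoters (77.8%) and 22 of 37 DNA replication promoters (59.5%), so they are not particular to mitosis genes. The cell cycle homology letters TTTGAA, also on either strand, were in 8 of the 26 (30.8%), against 16.0% of all. In each of 4 promoters chosen as examples, the 120 bases with the most matched letters are given 5′ to 3′ on the coding strand (GRCm38.p6). Matches to either are in capitals, and their density follows from this choice.
Ccnb1, chr13:100786487-100786606 (minus strand): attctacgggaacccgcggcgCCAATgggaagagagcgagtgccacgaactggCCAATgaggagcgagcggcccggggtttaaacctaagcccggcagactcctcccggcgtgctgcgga
Ccnb2, chr9:70421602-70421721 (minus strand): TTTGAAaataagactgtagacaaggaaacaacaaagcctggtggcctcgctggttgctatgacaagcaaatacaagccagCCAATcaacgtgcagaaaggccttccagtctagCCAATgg
Cdk1, chr10:69352913-69353032 (minus strand): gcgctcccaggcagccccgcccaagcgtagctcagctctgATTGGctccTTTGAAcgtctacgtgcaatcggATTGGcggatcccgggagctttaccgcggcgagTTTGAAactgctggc
Ube2c, chr2:164769743-164769862 (plus strand): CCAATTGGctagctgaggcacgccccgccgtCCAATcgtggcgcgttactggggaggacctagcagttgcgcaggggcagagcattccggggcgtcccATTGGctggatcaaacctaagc
A match describes the letters in this window and is not a measured binding site.

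DNA replication genes rose too, all 41 of those tested (median 1.31). All 41 were called in each fit that left out an array, and 34 with spike-in scaling. Mcm10, which starts the replication fork, rose 11.6-fold from 586, 631 and 565 to 7358 and 6393 (adjusted p = 6.0e-09). The helicase loader Cdc6 rose from 112, 123 and 116 to 1234 and 1142, and the origin recognition subunit Orc1 from 47.0, 45.9 and 40.4 to 403 and 423. Of the helicase itself, Mcm5 rose 5.72-fold, Mcm2 4.26-fold and Mcm3 3.99-fold, while Mcm7 rose 1.37-fold and lost its call under quantile and spike-in scaling. The sliding clamp Pcna was already bright in vehicle (14204, 14724 and 13478) and reached 39883 and 43334. Uhrf1, which carries methylation onto new DNA, rose 7.94-fold.

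The E2F letters TTTNNCGC, searched on both strands, were in 10 of 37 promoters of 31 matched replication genes (27.0%), against 4.28% of all promoters. They are shown for the loader and a helicase subunit, in stretches chosen in the same way. E2F matches alone are in capitals, in Mcm5 as overlapping matches on both strands.
Cdc6, chr11:98908013-98908132 (plus strand): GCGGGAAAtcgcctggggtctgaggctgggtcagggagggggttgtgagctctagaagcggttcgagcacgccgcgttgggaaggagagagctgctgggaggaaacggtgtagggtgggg
Mcm5, chr8:75109356-75109475 (plus strand): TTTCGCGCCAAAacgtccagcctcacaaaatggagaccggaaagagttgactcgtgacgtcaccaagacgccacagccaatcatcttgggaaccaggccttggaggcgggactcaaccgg
The full palindrome of the estrogen response element was in none of the promoters of 5 lists searched (mitosis, DNA replication, cholesterol synthesis, oxidative phosphorylation and uterine secretions) and in 0.0639% of all, within the same 250 bases.

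Genes that make the precursors of DNA rose as well. Of 27 nucleotide synthesis genes 25 were higher (median 1.30). Tk1, which salvages thymidine in S phase, rose 11.6-fold, from 623, 742 and 655 to 7908 and 7626. Rrm2, the regulated subunit of ribonucleotide reductase, rose from 206, 143 and 125 to 1121 and 1111. The thymidylate synthase Tyms rose 5.11-fold and the mitochondrial folate enzyme Mthfd2 10.6-fold. With position as a block the log2 difference of Mthfd2 went from 3.40 to 1.39. Pfas was at 1208, 1255 and 1105 in vehicle and 1231 and 1268 after E2 and Prps2 at 773, 907 and 836 and 923 and 858, neither past the threshold.

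Regulators of the step from G1 to S changed in both directions. Of 28 tested 16 were higher and 7 lower (median 0.59), where 27.2% of all probes were higher and 37.8% lower. With spike-in scaling and with position as a block 3 were lower. Ccne1, the cyclin of S phase entry, rose from 781, 553 and 567 to 4556 and 4515, and the transcription factors E2f1 and E2f8 rose 6.40- and 8.35-fold. The kinase inhibitor Cdkn1c, which holds cells out of the cycle, fell from 44839, 42093 and 35610.1 to 8947 and 9477 (adjusted p = 1.0e-08), and Cdkn1b fell 2.10-fold. The G1 kinases moved apart, with Cdk4 2.40-fold higher and Cdk6 2.32-fold lower. Myc, an early estrogen target, was at 5122, 4176 and 4234 in vehicle and at 3984 and 6666 after E2, which overlapped, while its mean at 2 h was 11386.

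Genes that build ribosomes rose. Of 42 ribosome biogenesis genes 41 were higher (median 0.97), 38 to 41 in the fits without 1 array and 27 with spike-in scaling. Rrp12, an export factor of ribosomal subunits, rose from 119, 221 and 232 to 865 and 999.8. Bysl rose 4.45-fold and Nhp2 4.05-fold, both parts of the machinery that processes ribosomal RNA. The methyltransferase fibrillarin (Fbl), bright in vehicle at 56927, 53746 and 57666, reached 133974 and 151953. Only Utp15 was not called (603, 590.1 and 617 against 488 and 545).

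The cholesterol synthesis pathway rose. All 20 genes tested were higher (median 1.78), and 18 to 20 were called under each other scaling and each fit without 1 array. Fdps, which makes farnesyl diphosphate, rose 14.1-fold from 1588, 1738 and 1656 to 23078 and 23835 (log2 3.82 ± 0.16 SE, adjusted p = 2.7e-10). Mvd, which ends the mevalonate steps, rose 10.1-fold from 439, 537 and 589.8 to 5230.2 and 5205. Idi1 and Sqle rose 9.08- and 7.56-fold, and the synthase Hmgcs1 3.35-fold. Lss (1.26-fold) and Acat2 (1.36-fold) changed least, and both lost their calls with spike-in scaling and with array position as a block, Lss also without E2 replicate 3.

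Genes that take up, sense and export sterols changed in both directions. The sterol uptake, sensing and efflux list had 7 genes higher and 7 lower of 18, with a median of 0.00. Of all probes 27.2% were higher and 37.8% lower, so the decreases were near that share. Stard4, which carries cholesterol through the cytosol, rose from 3552, 3177 and 2794 to 8449 and 9252. Abca1, which exports cholesterol, fell from 8847, 9304 and 9397 to 2408 and 1778. With position as a block the log2 difference of the carrier Apoe went from -2.02 to -1.33. Apoe fell 4.04-fold, from 106058, 119146 and 130935 to 32531 and 26309.6, and the oxysterol receptor Nr1h3 2.21-fold.

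The secretory and folding machinery was higher. Of 38 genes of protein folding and translocation in the endoplasmic reticulum 31 rose and 4 fell (median 1.21). Sdf2l1, an endoplasmic reticulum cochaperone, rose 9.06-fold to 9099 and 11423, a call lost with array position as a block (log2 1.61 against 3.18). Calr rose from 10656, 14019.5 and 12945 to 49293 and 51169, Hspa5, the BiP chaperone, 2.79-fold, and the translocon subunit Sec61b 3.93-fold. Ddit3, a stress-induced death factor also known as CHOP, fell from 2497, 2921 and 2843 to 1248 and 976. Of 23 cytosolic and mitochondrial chaperones 21 rose (median 0.93), among them the mitochondrial pair Hspe1 and Hspd1 by 3.26- and 2.86-fold.

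Genes of respiration rose, and most of those of glycolysis did. All 22 oxidative phosphorylation genes tested were called higher (median 0.98), from cytochrome c (Cycs, 10015, 10062 and 9133 to 49401 and 52202) and Cox5a (3.52-fold) down to Cox4i1 (1.19-fold). Cox4i1 did not keep that call when vehicle replicate 1 or 3 or E2 replicate 3 was left out, nor with no scaling or spike-in scaling, and it was lower by -0.22 (adjusted p = 0.042) after normexp background correction with quantile normalization. In glycolysis 12 genes rose and 5 fell of 19 (89.5% called, against 65% of all probes, median 0.63). Eno1 rose from 588, 857 and 932 to 3323 and 3285, Pgk1 3.88-fold and Ldha 3.11-fold, while Pdk1, which keeps pyruvate out of the mitochondrion, fell 2.08-fold.

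Secreted and surface products of the epithelium rose or were not called. Of 29 tested 19 rose, none fell and 10 were not called (median 2.41). This list was written with the known estrogen markers of the uterus in view, so its direction is not independent evidence. Padi2, a citrullinating enzyme, rose from 411, 482 and 511 to 15316 and 15661 (log2 5.05 ± 0.17 SE, adjusted p = 1.5e-10), and Padi1 from 1424, 1896 and 2186 to 23038 and 37994. The membrane mucins Muc4 and Muc1 rose 21.7- and 13.6-fold, Muc4 from 367, 281 and 317 to 7725 and 6225, and Muc1 went from 3.76 to 2.43 on the log2 scale with position as a block. The siderophore-binding lipocalin Lcn2 rose 20.6-fold. Lactoferrin (Ltf), a classic estrogen-induced secretion, rose from 7311, 9129 and 9278 to 57037 and 51992. The carbonic anhydrase Car2 rose 12.3-fold, the adhesion molecule Ceacam1 11.97-fold, the secreted Clca1 6.46-fold and the antibody carrier Pigr 5.48-fold. Complement C3, also a known estrogen marker, was at 91159, 99091 and 99938 in vehicle and 143312 and 130790.0 after E2, which did not pass the threshold except in a fit of these 5 arrays alone.

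**Figure D4:**
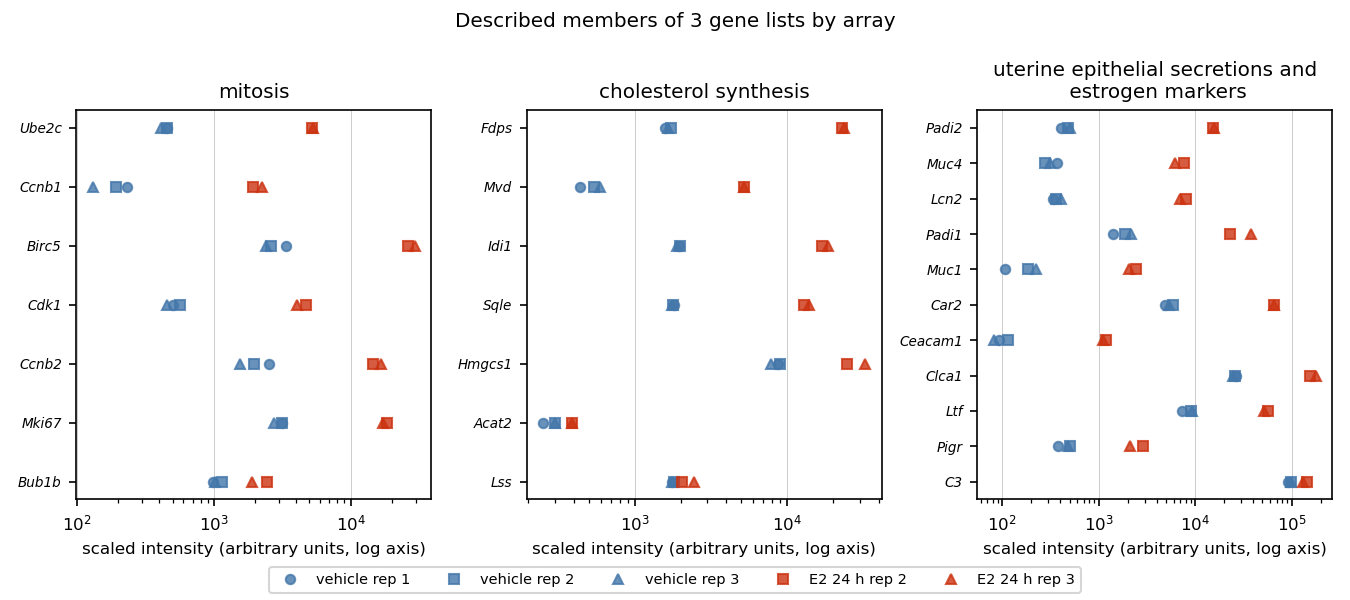
Scaled intensity (arbitrary units, log axis) in each array of the mitosis, cholesterol synthesis and uterine secretion genes named in the text, ordered by log2 difference; levels compare arrays within a gene, not genes. Both E2 arrays lay above every vehicle array for each gene shown.

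Water and ion channels changed in both directions. Of 19 tested 7 rose and 6 fell (68.4% called, near the 65% of all probes, median -0.04). Aqp5 rose from 1643, 2224 and 1867 to 7938 and 7779 and Aqp8 from 482, 307 and 246 to 1443 and 2122, and both were higher still at 2 h (means of 18350.4 and 6168). The chloride channel Cftr rose 4.03-fold. Subunits of the epithelial sodium channel fell, with Scnn1b at 549.9, 683 and 645 against 242 and 190.2 and Scnn1g at least 4.77-fold lower. The vascular water channel Aqp1 fell 2.16-fold. Aqp7 fell from 634, 261 and 209 to 8.50 and 29.4, and its vehicle values had the order of the germ cell genes. Without E2 replicate 2 or 3 the log2 difference was -3.47 and -5.26 for Aqp7 and -2.50 and -3.78 for Scnn1g.

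Genes of steroid action changed in both directions, with enzymes that set local steroid levels among them. Of 26 steroid receptor, coregulator and steroid enzyme genes 7 rose and 12 fell (73.1% called, near the 65% of all probes, median -0.38). Of all probes 27.2% were higher and 37.8% lower, so the increases were near that share. Hsd17b2, which inactivates estradiol to estrone, was dim in vehicle and rose from 15.6, 10.1 and 4.43 to 92.3 and 72.6. Its log2 difference went from 3.21 to 0.93 after normexp background correction. Hsd11b2, which inactivates glucocorticoid, rose from 111, 148 and 138 to 905 and 1042. Hsd11b1, which does the reverse, fell 3.51-fold. The steroid sulfatase Sts, which frees estrogens from their sulfates, fell from 6313, 5969 and 6854 to 842 and 625 (adjusted p = 4.8e-08). The progesterone receptor Pgr, a target of E2, rose from 437, 503 and 461 to 847 and 1032 and the coactivator Ncoa2 fell 1.90-fold. The estrogen receptor Esr1 was called lower (25835, 22106 and 18332 against 12198 and 14692), a call lost without E2 replicate 2, with spike-in scaling and with slide or position as a block.

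In the insulin-like growth factor axis the ligand Igf1 rose and its receptor fell. Of 15 tested 6 rose and 8 fell (93.3% called, against 65% of all probes, median -0.73). Igf1, the growth factor by which stroma passes on the estrogen signal, rose from 3641, 4174 and 3629 to 13793 and 19298 (adjusted p = 3.2e-07), in 2 of its 3 probes. Its receptor Igf1r fell 4.05-fold, from 13110.2, 12416 and 11945 to 2825 and 3357, and the insulin receptor Insr 2.77-fold. Igfbp3, the main circulating IGF carrier, fell from 24408, 22920.4 and 24966 to 1773 and 1689, 13.9-fold. Pappa, a protease that frees IGF from its carriers, fell 4.47-fold, while its inhibitor Stc2 rose 8.71-fold and the carrier Igfbp5 2.21-fold.

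Genes of signalling between epithelium and stroma were mostly lower or not called. In FGF and hedgehog signalling 1 gene rose and 11 fell of 22 (54.5% called, below the 65% of all probes, median -0.50). Of all probes 37.8% were lower. With spike-in scaling or with position as a block 5 fell, and without E2 replicate 3 the median was -0.47. The hedgehog receptor and target Ptch1 fell from 765, 678 and 709.6 to 173 and 130.2, and Fgfr2 3.22-fold from 6297, 6800.0 and 7192 to 1974 and 2226. Hhip, which binds hedgehog ligands away from the receptor, was the gene that rose, from 23.1, 28.8 and 18.2 to 147 and 170.5. The ligand Ihh was at 214, 252 and 267 in vehicle and 109 and 44.9 after E2, a fall of -1.80 on the log2 scale (-2.44 and -1.16 without E2 replicate 2 or 3) whose call was lost with position as a block, while at 2 h it averaged 1324. In the EGF family none rose and 3 fell of 13 tested (23.1% called, against 65% of all probes). The ligands Tgfa (139, 146 and 169 against 85.3 and 88.9) and Hbegf (2029, 2531 and 2453 against 1558 and 1693) fell, as did the receptor Egfr, from 7803, 6842 and 7386 to 5532 and 5170.4. All 3 calls were lost with spike-in scaling and with position as a block, and that of Hbegf also without E2 replicate 2.

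Antigen presentation genes fell, and complement genes changed in both directions. All 8 MHC class II genes tested were lower (median -1.14), where 37.8% of all probes were, and 8 stayed called in each fit without 1 array and 6 with spike-in scaling. H2-Eb1 fell from 10659, 10026 and 12760.5 to 4299 and 4163, the invariant chain Cd74 from 24249.9, 25142 and 27836 to 10471 and 10825, and Ciita, the transactivator of the class, 2.26-fold. The H2 genes are related copies and their probes may cross-hybridise. In a bulk tissue, fewer cells of a type and less RNA per cell cannot be told apart. Among complement genes 3 rose and 8 fell of 19 (57.9% called, against 65% of all probes, median -0.52). Cfb, which forms the alternative convertase, rose from 3693, 3584 and 3997 to 35343 and 36688 and the cleaving protease Cfi 3.02-fold. Complement C4 (C4b), C5 (Hc) and the inhibitor Serping1 fell 3.00-, 5.34- and 2.97-fold.

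Of 26 apoptosis regulators 11 rose and 11 fell (84.6% called, median -0.15), while elastic fibre and prostaglandin genes were called about as often as all probes (65%) or less. The death effectors Bax and Bak1 rose 3.04- and 2.99-fold, and the inhibitor Naip1 rose by 4.91 on the log2 scale to 389 and 236, with 1 vehicle array of 3 clear of background. The protective Bcl2 fell from 15419, 11943 and 14364 to 4574 and 3969.6 and the killer Bcl2l11 3.23-fold. Among elastic fibre genes 9 rose and 6 fell of 21 (71.4% called), with Fbn2 2.90- and Loxl2 2.47-fold higher and Fbln1 3.59- and Efemp1 2.78-fold lower. In prostaglandin and oxytocin signalling 4 rose and 4 fell of 16 (50% called, below all probes). The prostaglandin E synthase Ptges2 rose 3.07-fold, the carbonyl reductase Cbr2 from 17512, 22437 and 18466 to 129142 and 137261, and the prostaglandin D synthase Ptgds fell from 769, 534 and 500.4 to 172 and 165.

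Markers of the uterine epithelium, stroma, muscle and vessels were all tested, so these cell types were detected as labelled. Of 18 epithelial markers 12 rose and 3 fell (median 1.23), where 27.2% of all probes were higher and 37.8% lower. Krt7, a simple epithelial keratin, rose from 12474, 14799 and 13069 to 95879.5 and 97082 and the tight junction protein Cldn7 from 9148, 10881 and 10919 to 61769 and 67048. The epithelial transcription factor Elf3 rose 7.96-fold. In contrast Cdh16, a cadherin, fell from 11116, 13491 and 11287 to 1718 and 1903, and Foxa2, a factor of the uterine glands, from 6580.4, 8640.0 and 6327 to 2938 and 3031. Wnt7a was called lower (2.55-fold), a call lost without vehicle replicate 3, without either E2 array and with slide or position as a block.

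Stromal and muscle markers had calls in both directions. Of 15 stromal markers 5 rose and 6 fell (73.3% called, near the 65% of all probes, median -0.25). Without E2 replicate 3 there were 3 stromal decreases, and with spike-in scaling 2, with no increase. The collagen-binding Dcn, among the brightest, fell from 356671, 325274 and 316875 to 198209 and 189175 and the growth factor receptor Pdgfra 1.78-fold. Of 18 smooth muscle markers 8 rose and 6 fell (77.8% called, median 0.23). The visceral actin Actg2 and desmin (Des) rose 3.02- and 2.35-fold, and the filament protein Synm fell 2.22-fold. For Acta2 the brightest probe rose (1.40-fold), though 1 of its 5 probes fell and the call was lost with spike-in scaling and with position as a block.

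Of 19 endothelial markers 3 rose and 11 fell (37.8% of all probes were lower, median -0.39). The tight junction protein Cldn5 fell from 23604, 27901 and 28052 to 7916 and 6640.5, the clotting factor carrier Vwf 2.83-fold and the lymphatic factor Prox1 2.85-fold. Plvap, which spans the openings of permeable vessels, rose from 1327, 1791 and 1709.7 to 6256 and 5989. Among blood cell markers the share lower was above that of all probes only for lymphocytes and slightly for eosinophils. Of 10 macrophage markers 3 fell and 1 rose, of 11 lymphocyte and NK cell markers 6 fell, of 7 mast cell markers 2 fell, of 5 eosinophil markers 1 rose and 2 fell, of 5 neutrophil markers 1 rose and 1 fell, and of 4 red cell markers 1 fell. Of these, 1 macrophage marker fell without E2 replicate 3, no mast cell marker fell without vehicle replicate 1, and no eosinophil marker fell without E2 replicate 2. The median of the neutrophil list turned with the array left out (-1.46 without E2 replicate 3 and 1.20 without E2 replicate 2). Of 7 skeletal muscle markers 2 rose and 2 fell (57.1% called, below the 65% of all probes). Acta1 rose from 6459, 5811 and 7357 to 22937 and 24499 and Tnni2 from 6996, 5596 and 7578 to 26776 and 43449. The decreases were 1 without vehicle replicate 1 or either E2 array, and none with spike-in scaling or with position as a block. Of 9 ovary and oviduct markers 7 fell (median -1.27), and of 6 liver markers 4 fell, 1 or 2 of them in the fits without vehicle replicate 1 or an E2 array.

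Other lists whose genes went both ways also lost calls under other fits. With spike-in scaling 4 steroid genes rose and 4 fell, 6 apoptosis regulators rose and 6 fell, 4 sterol handling genes rose and 4 fell, and 3 smooth muscle markers rose and 2 fell. Of the endothelial markers 1 rose and 4 fell, of glycolysis genes 9 rose and 1 fell, of the IGF axis 3 rose and 7 fell, and of the elastic fibre genes 5 rose and 4 fell. With position as a block 5 MHC class II genes fell, 7 apoptosis regulators rose and 4 fell, and 3 sterol handling genes rose and 4 fell. Prostaglandin and oxytocin genes gave 2 increases and 2 decreases without either E2 replicate and with spike-in scaling, and the smooth muscle list 5 increases and 4 decreases without E2 replicate 3.

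E2 at 24 h was then set directly against the groups most like it, in the same fit, as differences that do not use the vehicle levels. These contrasts share the E2 24 h arrays, so each is given by its own values. Transcripts of other tissues differed here as well. Of 40 male germ cell genes 28 were lower and 1 higher than in BPA arrays (median -1.76), 7 to 26 lower under the other scalings. Against HPTE 8 were lower and 1 higher (median -0.64), 1 to 5 lower under the other scalings. Of 20 pancreas genes 5 were higher against BPA and 5 against HPTE, near the shares of all probes (25.4% and 22.3%). Against E2 at 2 h, 17887 probes (56.8%) were called, 8398 higher (26.7%) and 9489 lower (30.1%). Against BPA at 24 h, 18539 (58.9%) were called, 8004 higher (25.4%) and 10535 lower (33.5%), and against HPTE at 24 h 15750 (50%), 7020 higher (22.3%) and 8730 lower (27.7%). The split moved with the scaling. With no scaling the higher share of the calls went from 47.0% to 66.1% against E2 2 h, from 43.2% to 53.6% against BPA and from 44.6% to 58.9% against HPTE, and with spike-in scaling it was 55.0% against E2 2 h, 55.0% against BPA and 76.9% against HPTE.

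Cell division genes were higher after E2 at 24 h than at 2 h and than after BPA. All 31 mitosis genes were higher at 24 h than at 2 h after E2 (median 2.62) and 30 were higher after E2 than after BPA (median 1.18), but 11 were higher and 1 lower than after HPTE (median 0.38), where 22.3% of all probes were higher. Mki67 averaged 3441 in E2 2 h, 10883 in BPA and 18494 in HPTE arrays. Its difference from HPTE was -0.05 (log2, adjusted p = 0.89), and that of Ccnb2 was 0.06 (adjusted p = 0.87), which were not called and do not show that the groups were alike. Birc5 (0.58, adjusted p = 0.048) and Cdk1 (0.95, adjusted p = 5.8e-04) were higher after E2. Each other scaling gave 4 to 14 higher mitosis genes against HPTE.

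All 41 DNA replication genes were higher after E2 at 24 h than in each of the other groups (medians of 1.41, 1.47 and 1.07 against E2 2 h, BPA and HPTE), 33 to 41 under the other scalings. Mcm10 averaged 685, 904 and 1439 in these groups. All 20 cholesterol synthesis genes were likewise higher than in each group (15 to 20 under the other scalings), with Fdps at means of 1820.5, 2132 and 5206. The 8 MHC class II genes were lower than in each group, though with spike-in scaling none was called against HPTE. E2 was given at 250 ng and the xenoestrogens at 750 ug, so these values compare treatments as given and not potency.

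Among single genes Sprr2d was named as an increase in each of these contrasts, and Sprr2f against E2 2 h and BPA. Sprr2f was at 107711 and 123460.0 in the E2 24 h arrays and had means of 883 in E2 2 h, 1053 in BPA and 2410.3 in HPTE arrays. Fam3b, a secreted cytokine-like protein, was higher than in E2 2 h by 6.93 (log2, adjusted p = 1.9e-09), at 1360.5 and 1690.4 against 2 h values of 12.05 to 12.9. Krt85 was not called against E2 2 h, where it averaged 12093 (log2 difference -1.83, adjusted p = 0.056), but it was higher than in BPA by 6.65 and than in HPTE by 6.20. Uox, Gsdmc2 and Atp2c2 were the others named by these contrasts.

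The named decreases against E2 2 h included early response genes. Egr4, an early growth response factor, ranged over 3913 to 5775 at 2 h and was at 6.26 and 7.71 at 24 h, where no array was well above background. Egr3 ranged over 3727 to 4091 at 2 h against 31.1 and 42.3 at 24 h and 101, 119 and 113 in vehicle. Arc, an early gene known from neurons, ranged over 10064 to 19008 at 2 h against 129 and 156 at 24 h and 759, 364 and 349 in vehicle. The 3 genes were thus below vehicle at 24 h and far above it at 2 h, and the call of Egr4 against vehicle was lost after normexp background correction. Against BPA, HPTE or both the named decreases were Ano2 (means of 268 and 119), Coch (2067 and 895), Slc5a11 (4579 and 2994), Cadps, Lgi1 and Speer4cos. These lie above the E2 24 h arrays by a comparison without the vehicle arrays, though a gene was named only if it was also called against vehicle.

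**Figure D5:**
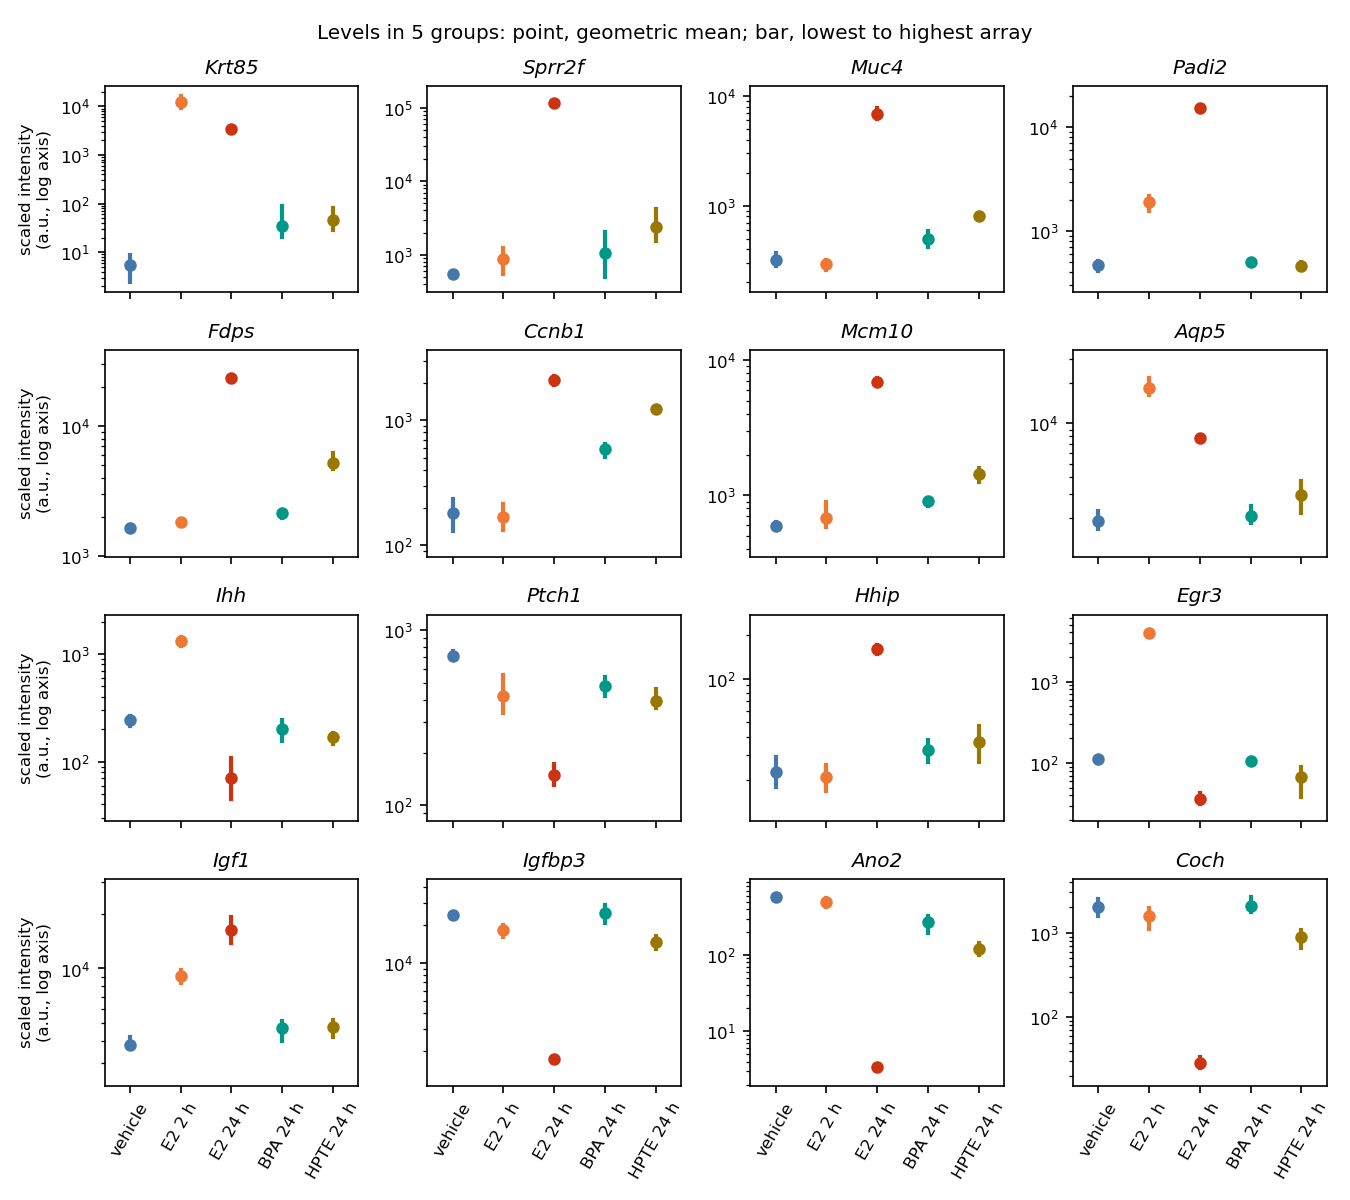
Scaled intensity (arbitrary units, log axis) of 16 genes in 5 groups, vehicle, both E2 times, BPA and HPTE (24 h); points are geometric means and bars run from the lowest to the highest array (n = 3, and n = 2 for E2 24 h). Krt85 and Aqp5 were highest at 2 h, Ihh and Egr3 were above vehicle at 2 h and below it at 24 h, and Ano2, Coch and Igfbp3 were lowest in E2 24 h.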

How the data were processed

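Uterine RNA (500 ng, 1 uterus per array) was labelled with Cy3 and hybridised to 1-colour Agilent mouse arrays. Per the labels and the file headers, the authors deposited Feature Extraction 9.5 output, and the processed intensity of each spot was already background subtracted and spatially detrended, with no scaling between arrays. Well-above-background, saturation and outlier flags were taken from the same files. The series value table held the same intensities on all 20 arrays (relative tolerance 1e-06).

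Control spots and outlier spots were left out, spots of a probe were averaged, and the log2 of the deposited intensity was centred on each array's 75th percentile, which lay between 1492 and 2046 on the 5 compared arrays. Scaled intensity is this value put back at the mean level of the 5 arrays. Of 31510 probes that passed the filter, 26 were dropped because outlier spots left a value missing. Differences are log2, fitted with limma 3.58.1 (R 4.3.3) over 7 groups on all 20 arrays, which share 1 estimate of the spread (prior df 1.973). P-values were adjusted by Benjamini-Hochberg over the 31484 probes tested, with a threshold of 0.05. With 3 and 2 arrays the number of animals limits the precision. In simulated data few of the 31484 probes were changed, and the noise was independent between probes. There the fit recovered 27.5%, 71.25% and 97.5% of changes of 0.5, 1 and 2 log2 units in E2 24 h against vehicle. There were 6 false calls among the unchanged probes. In the data 65% of probes were called, so these rates may not carry over. Where a group had no array that cleared background, the fold given as at least is a ratio to the dimmest signal that cleared it on each array. A brighter signal of the probe itself was used in its place. This limit is approximate, and another background correction can give a smaller change. After normexp background correction the log2 difference of Scnn1g went from -3.14 to -0.65.

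Probes were named through RefSeq accessions (23075 of 41174), current symbols (6587) or synonyms (3072), and otherwise kept the file's name (8440). A list member with several probes is given by its brightest. A ranked gene is given by the probe with the largest difference in that comparison, which can differ between comparisons. Probe positions are on mm7 as deposited, and promoters are RefSeq sequences on GRCm38.p6. Named genes are the members of the lists, plus the 15 largest increases and 15 largest decreases that were called in every fit without 1 array with groups that did not overlap, and 5 in each direction for each direct contrast among probes called the same way against vehicle. Unnamed transcripts and members of the pancreas, germ cell, Y chromosome and liver lists were left out of that ranking. The comparison, its members and the lists were chosen with earlier results of these data known. Alternatives were normexp background correction, quantile, spike-in or no scaling, other filters, slide, array position and replicate number as blocks, and each array left out. Some single genes are not reported here but are counted in their lists.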

Additional observations from a re-analysis of the deposited data

Results flagged for a closer look

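In 6 named genes all E2 arrays of 1 time lay above and all of the other below every vehicle array, at least 2-fold away at 2 h, and each was called against vehicle at 24 h. The direct difference is E2 24 h minus E2 2 h, from limma. A call in that contrast was part of the choice of these genes, so its adjusted p-values are not independent support. The vehicle uteri were those of 24 h at both times. For Ihh the direct difference was -4.24 (adjusted p = 4.9e-07), from -1.80 at 24 h and 2.44 at 2 h against vehicle, and its call at 24 h was lost with array position as a block. For Hbegf, an EGF family ligand, it was -2.53 (adjusted p = 7.4e-09), from -0.52 and 2.02, and its call at 24 h was lost with spike-in scaling, with no scaling, with slide or position as a block and without E2 replicate 2. For Fam3b it was 6.93 (adjusted p = 1.9e-09), from 5.04 and -1.89. For Egr3 it was -6.77 (adjusted p = 2.3e-10), from -1.61 and 5.15, and for Arc -6.66 (adjusted p = 4.8e-10), from -1.69 and 4.97. For Egr4 it was -9.40 (adjusted p = 8.5e-12), from -2.04 and 7.36. No E2 24 h array cleared background for Egr4, so these log2 values are fits rather than bounds, and its call against vehicle was lost after normexp background correction.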

How the results depend on the processing

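The 4 comparisons were recomputed under each alternative, and the cause of the shifts below was not tested. With spike-in scaling the number of calls was 11378 against vehicle, 7877 against E2 2 h, 8403 against BPA and 5937 against HPTE, and when calls also had to reach 2-fold it was 8967, 6443, 7023 and 4586. Array position as a block left 5902 calls against HPTE. Every other alternative kept each count within 1.5 times its value. Leaving out 1 array gave 17708 to 19770 calls against vehicle, 15101 to 17013 against E2 2 h, 15131 to 17346 against BPA and 11755 to 14714 against HPTE. Replicate numbers did not pair the samples (r of deviations 0.017 for number 2 and 0.013 for number 3), and with the replicate block there were 20062, 17499, 18101 and 15193 calls. Over 197 genes and the median of all probes, 3245 values were kept, 98 lost the call, 1 gained it and 6 changed sign with a call in either fit. A value of a gene was kept if it stayed on its side of the threshold in the same direction, or changed sign with neither fit called. The median of all probes was kept, as it moved by less than the spread between vehicle arrays. Cox4i1 went to -0.22 after normexp with quantile normalization and to -0.10 after quantile normalization alone. With position as a block Cpa1 was -2.30, Ctrc -1.95, Cela2a -3.15 and Pnlip -2.32. Of the medians of 39 lists, 494 values moved by less than the spread between replicates and 169 by more. The fold change against vehicle moved by over 1.5-fold in 66 of 197 genes after normexp with quantile normalization and in 29 with position as a block. Transcripts with no array over background in a group have only an approximate bound on their change.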
